A study of Mus musculus with 6 samples.

Results

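The genes described here are 9 components of the major histocompatibility complex (MHC) class I molecule and Nlrc5, the transactivator of class I genes. They are the classical heavy chain genes H2-K1 and H2-D1, the light chain gene B2m, the nonclassical heavy chain genes H2-Q4, H2-Q6, H2-Q7, H2-T22, H2-T23 and H2-M3, and Nlrc5. They were chosen by name as rows of the deposited count table, and all 10 were found among its 23107 genes. RNA was sequenced from myeloid cells that had been sorted by flow cytometry as CD11b+ Gr-1+ out of tumours of C57BL/6 mice. The mIDH1 group had 3 libraries from tumours labelled mutant IDH1, and the wtIDH1 group had 3 libraries from tumours labelled wild type IDH1. The series title names glioma stem cells as the carriers of the mutant IDH1, which is an altered form of isocitrate dehydrogenase, so the labelled genotype is that of the tumour and not of the sorted cells. The labels do not say whether the libraries of a group came from separate mice, nor which IDH1 substitution or tumour line was used.

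A class I molecule is a heavy chain paired with the light chain encoded by B2m, and it presents peptides made in the cytosol at the cell surface. The classical molecules present to CD8 T cells, while the nonclassical ones of the Q, T and M regions are bound by more specialised receptors on T cells and natural killer cells. Nlrc5 acts in the nucleus, where it assembles with RFX, CREB family and NF-Y proteins on an upstream module shared by class I promoters, and both Nlrc5 and class I genes are induced by interferons in many cells, myeloid cells included.

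The libraries held between 19728204 and 35093267 estimated counts. Levels are given as CPM (counts-per-million of the library total, scaled by TMM, the trimmed mean of M values), and a count of 0 allowed up to between 0.0855 and 0.1521 CPM. The first principal component of all genes separated the groups and accounted for 33.2% of the variance. Markers of the sorted cells (Itgam, Ly6c1, Ly6c2 and Ptprc) summed to 3084 to 3589 CPM in mIDH1 libraries and to 3109 to 3462 CPM in wtIDH1 libraries, most of it from Itgam and Ptprc. Ly6c2, a carrier of the Gr-1 epitope, was at 46.9, 54.3 and 33.8 CPM in mIDH1 libraries, against 120.2, 214.5 and 121.4 CPM in wtIDH1 libraries, and fell (log2 fold change -1.76, adjusted p = 0.00184, edgeR). Ly6g, the granulocyte part of the Gr-1 epitope, was not analysed here. In bulk libraries of this kind, fewer cells of a type and less RNA per cell cannot be told apart.

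Promoter windows were found for 9 of the 10 genes, all but Nlrc5, in RefSeq on GRCm38.p6, and each runs from 250 bases before to 50 bases after the annotated start. The 4 windows printed here are those of the class I gene with the lowest mIDH1 level relative to wtIDH1 (H2-T22), the gene with the smallest p among the 3 of the Q region (H2-Q4), a classical heavy chain gene (H2-K1) and the light chain gene (B2m), so that promoters of genes that fell can be read beside promoters of genes that did not pass the test. They are written 5′ to 3′ on the strand of the gene. Capitals mark matches to the motifs searched for, on either strand, and adjoining or overlapping matches run together.
H2-T22, chr17:36042693-36042992, minus strand: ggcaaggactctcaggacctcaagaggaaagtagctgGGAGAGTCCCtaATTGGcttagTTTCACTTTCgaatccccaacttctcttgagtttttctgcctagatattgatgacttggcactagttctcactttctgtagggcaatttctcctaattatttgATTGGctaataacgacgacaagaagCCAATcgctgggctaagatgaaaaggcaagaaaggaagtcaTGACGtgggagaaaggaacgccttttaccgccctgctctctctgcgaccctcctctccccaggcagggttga
H2-Q4, chr17:35379367-35379666, plus strand: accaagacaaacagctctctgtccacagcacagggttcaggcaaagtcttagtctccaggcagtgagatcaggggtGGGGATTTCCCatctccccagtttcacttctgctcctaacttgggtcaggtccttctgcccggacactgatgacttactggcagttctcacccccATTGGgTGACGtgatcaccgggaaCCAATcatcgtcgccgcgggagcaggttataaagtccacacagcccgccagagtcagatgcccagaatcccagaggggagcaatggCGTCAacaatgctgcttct
H2-K1, chr17:34000298-34000597, minus strand: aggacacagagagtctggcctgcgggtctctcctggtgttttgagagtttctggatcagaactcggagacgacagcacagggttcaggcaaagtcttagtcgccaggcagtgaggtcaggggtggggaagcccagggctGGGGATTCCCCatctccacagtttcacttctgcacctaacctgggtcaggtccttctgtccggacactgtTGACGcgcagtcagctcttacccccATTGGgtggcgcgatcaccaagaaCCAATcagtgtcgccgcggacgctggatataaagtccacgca
B2m, chr2:122147437-122147736, plus strand: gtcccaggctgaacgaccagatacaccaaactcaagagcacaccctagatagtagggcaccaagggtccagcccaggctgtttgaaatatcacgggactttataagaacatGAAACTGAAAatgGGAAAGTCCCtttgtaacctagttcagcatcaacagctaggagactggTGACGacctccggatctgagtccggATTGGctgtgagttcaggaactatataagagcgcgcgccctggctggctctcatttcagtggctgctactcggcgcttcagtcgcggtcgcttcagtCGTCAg
The module that binds the Nlrc5 complex contains a cyclic AMP response element and a CCAAT box, and both were searched for as short cores. The core TGACG, or its reverse complement, was in 7 of 9 windows (all but H2-Q6 and H2-T23), and in 20.8% of the 32851 promoter windows of all genes. The CCAAT box (CCAAT or ATTGG) was in 9 of 9 windows and in 37.4% of all windows. Either core was counted wherever it lay in a window. On the strand of the gene, TGACG was followed by ATTGG in H2-K1, H2-D1, B2m, H2-Q7 and H2-M3. In H2-Q4 TGACG began 73 bases before the start, behind ATTGG at 79. In H2-T22 it began at 22, behind ATTGG at 201 and 88. Whether a match is the element of the module was not tested. The kappaB consensus, a site for NF-kappaB, was in 8 of 9 windows (all but H2-T23) and in 8.46% of all windows. The core of the interferon-stimulated response element, searched as GAAA followed after 2 bases by GAAA, was in 3 of 9 windows and in 3.44% of all windows. It began 191 bases before the start in H2-T22, 139 in B2m and 124 in H2-T23. Only exact matches were counted, so a near match such as tttcacttct in the H2-K1 and H2-Q4 windows was not. The search therefore cannot show that a window lacks an interferon element. The core of the gamma-activated site, TTC followed after 3 bases by GAA, was in the H2-M3 window alone of the 9, and in 8.30% of all windows. Class I genes are related by descent, so their windows are not independent, and a match to these letters does not show that a factor binds there.

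In cells from mIDH1 tumours 5 of the 10 genes fell and none rose, at an adjusted p under 0.05 in edgeR's quasi-likelihood test. The 5 were Nlrc5, H2-T22, H2-Q4, H2-Q6 and H2-Q7, with levels between 22.2% and 55.2% of those in cells from wtIDH1 tumours. H2-K1, H2-D1, B2m, H2-T23 and H2-M3 did not pass. Over all 12950 genes tested, 5.39% fell and 2.78% rose. The median log2 fold change (mIDH1 minus wtIDH1) was -0.64 over the 10 genes and 0.06 over all genes tested, and the change was negative in 9 of 10 genes and in 46.6% of all genes tested. The groups did not overlap in 7 of the 10 genes, and in 28.9% of all genes tested. Under the 15 alternatives that keep the rows as deposited, between 3 and 5 of the 10 genes fell, with 3 when mIDH1 replicate 2 or wtIDH1 replicate 2 was left out.

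**Figure D1:**
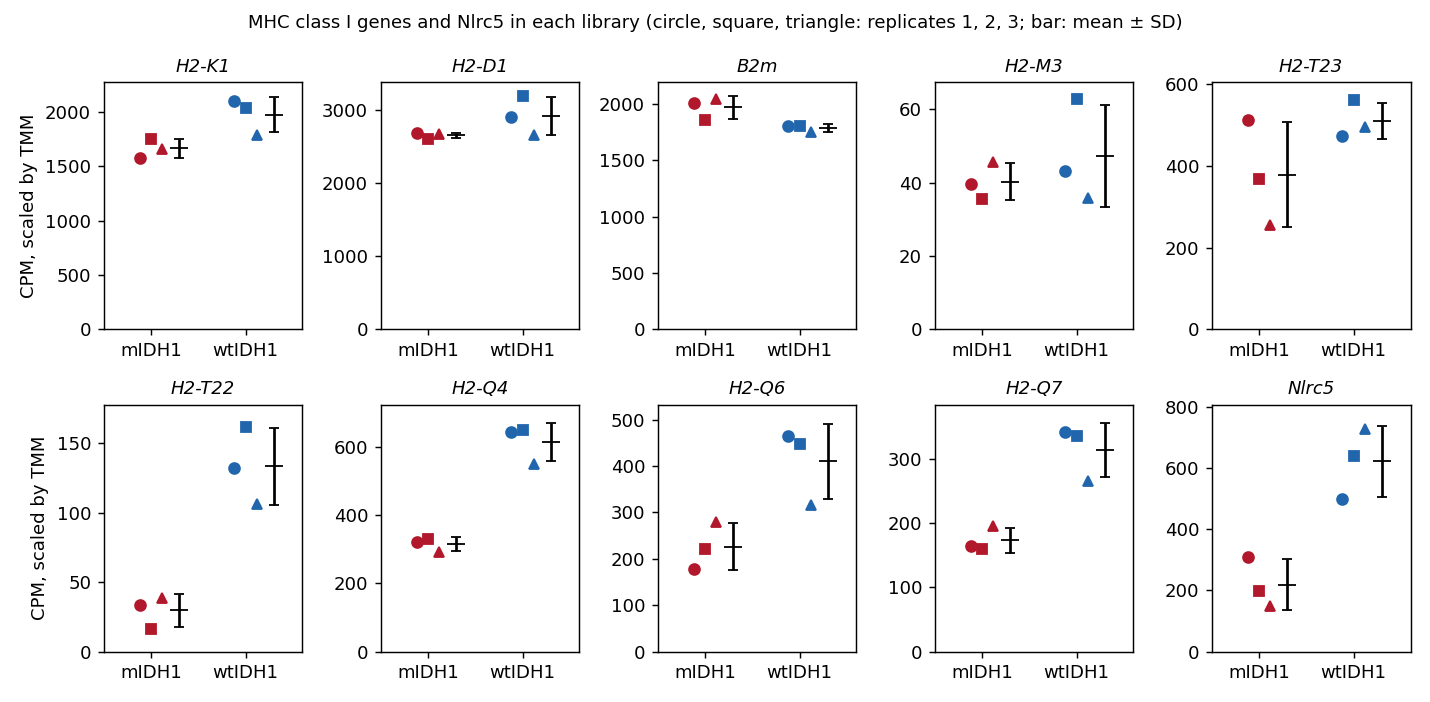
Level of each of the 10 genes in each library, in CPM scaled by TMM on a linear axis for each gene. The mIDH1 libraries are left of the wtIDH1 libraries, and bars show group means ± SD. Nlrc5, H2-T22, H2-Q4, H2-Q6 and H2-Q7 sit lower in every mIDH1 library than in any wtIDH1 library, while the H2-D1, H2-T23 and H2-M3 groups overlap.

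Nlrc5 (chromosome 8, 94434356 to 94527272, plus strand, GRCm38) was at 310.9, 197.1 and 149.0 CPM in mIDH1 libraries 1 to 3, against 499.1, 640.9 and 728.4 CPM in wtIDH1 libraries 1 to 3. Every mIDH1 library was below every wtIDH1 library, and mIDH1 replicate 1 was the nearest of them to the wtIDH1 group. The mean fell to 219.0 ± 83.1 CPM in mIDH1 libraries, against 622.8 ± 115.7 CPM in wtIDH1 libraries (SD, n = 3 each). The log2 fold change was -1.51 ± 0.25 (SE; adjusted p = 0.00372, edgeR), or 35.2% of the wtIDH1 level. Nlrc5 passed the test under all 15 alternative settings, with adjusted p between 1.9e-07 and 0.028. None of the 50-base stretches of its annotated transcripts occurs in another annotated gene. The kit did not mark strand, and exons of Nlrc5 overlap those of 9330175E14Rik, which was at 0.0476 to 2.76 CPM in mIDH1 libraries and 0.948 to 5.60 CPM in wtIDH1 libraries.

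The classical heavy chains and the light chain, the most abundant of the 10 genes, did not pass the test. H2-K1 (chromosome 17, 33996017 to 34000347, minus strand) was at 1579.3, 1754.0 and 1662.6 CPM in mIDH1 libraries, against 2099.8, 2033.5 and 1790.9 CPM in wtIDH1 libraries. All 3 mIDH1 libraries lay below the wtIDH1 libraries. The log2 fold change was -0.25 ± 0.15 (SE; adjusted p = 0.392, edgeR), and the 95% interval of -0.58 to 0.09 spanned 0. H2-D1 (chromosome 17, 35262730 to 35267499, plus strand) was at 2678.8, 2606.4 and 2669.3 CPM in mIDH1 libraries, against 2909.2, 3187.6 and 2656.9 CPM in wtIDH1 libraries. Its groups overlapped through wtIDH1 replicate 3, and the log2 fold change was -0.14 (95% interval -0.47 to 0.19, adjusted p = 0.662). B2m (chromosome 2, 122147686 to 122153083, plus strand), the partner of every heavy chain described here, was at 2006.6, 1856.5 and 2047.7 CPM in mIDH1 libraries, against 1802.9, 1807.5 and 1746.5 CPM in wtIDH1 libraries. It was the only one of the 10 genes with a positive log2 fold change, 0.14, and all 3 mIDH1 libraries were above the wtIDH1 libraries, but the 95% interval of -0.18 to 0.47 spanned 0 (adjusted p = 0.645). The lower bounds for H2-K1 and H2-D1 leave room for a decrease, so these values do not show that the levels were equal.

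Set against B2m within each library, 7 of the 8 heavy chain genes were lower in every mIDH1 library than in any wtIDH1 library, as were 19.4% of all genes tested other than B2m. B2m itself was higher in every mIDH1 library (log2 fold change 0.14, not past the threshold), which lowers every such ratio. H2-K1 had 78.7, 94.5 and 81.2 counts per 100 B2m counts in mIDH1 libraries, against 116.5, 112.5 and 102.5 in wtIDH1 libraries. H2-D1 had 133.5, 140.4 and 130.4 counts per 100 B2m counts in mIDH1 libraries, against 161.4, 176.3 and 152.1 in wtIDH1 libraries. H2-M3 was the exception, with 1.98, 1.91 and 2.23 counts per 100 B2m counts in mIDH1 libraries, against 2.40, 3.47 and 2.04 in wtIDH1 libraries. These ratios do not depend on how the libraries were scaled, and no test was run on them.

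The 3 Q region genes fell. H2-Q6 and H2-Q7 belong to the genes for Qa-2 antigens, which are held at the cell surface by a lipid anchor. H2-Q4 (chromosome 17, 35379617 to 35385290, plus strand) was at 321.9, 329.5 and 291.7 CPM in mIDH1 libraries, against 642.8, 647.8 and 548.2 CPM in wtIDH1 libraries. The groups were far apart relative to their spread, and the log2 fold change was -0.96 ± 0.16 (SE; adjusted p = 0.00356, edgeR), which leaves 51.3% of the wtIDH1 level. H2-Q4 passed under all 15 alternatives, with adjusted p of at most 0.0307.

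H2-Q6 (chromosome 17, 35424850 to 35430055, plus strand) was at 178.2, 221.3 and 279.3 CPM in mIDH1 libraries, against 464.5, 448.3 and 316.7 CPM in wtIDH1 libraries. The groups did not overlap, but mIDH1 replicate 3 and wtIDH1 replicate 3 lay close to each other. The log2 fold change was -0.86 ± 0.21 (SE; adjusted p = 0.0251, edgeR). It missed the threshold without mIDH1 replicate 1 (adjusted p = 0.0649), mIDH1 replicate 2 (0.0887), wtIDH1 replicate 1 (0.0886) or wtIDH1 replicate 2 (0.129), and with the replicate number as a block (0.0765). H2-Q7 (chromosome 17, 35439155 to 35443773, plus strand) was at 164.4, 160.3 and 196.0 CPM in mIDH1 libraries, against 341.6, 335.0 and 266.1 CPM in wtIDH1 libraries. Its groups did not overlap either, and wtIDH1 replicate 3 was again the lowest of the wtIDH1 libraries. The log2 fold change was -0.86 ± 0.17 (SE; adjusted p = 0.0102), and the adjusted p became 0.0509 without mIDH1 replicate 2 and 0.0708 without wtIDH1 replicate 2.

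The T region genes differed from each other. H2-T22 is a class I molecule that holds no peptide and is recognised by some gamma-delta T cells. H2-T22 (chromosome 17, 36037128 to 36042747, minus strand) was at 33.7, 16.4 and 39.0 CPM in mIDH1 libraries, against 132.1, 162.1 and 106.6 CPM in wtIDH1 libraries. No mIDH1 library came near the wtIDH1 range, and the log2 fold change of -2.17 ± 0.29 (SE; adjusted p = 0.00115, edgeR) was the largest in size among the 10 genes. The level was 22.2% of that in wtIDH1. This row cannot be read without that of its relative H2-T9, as described with the paralogs.

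H2-T23 (chromosome 17, 36029773 to 36032855, minus strand) encodes Qa-1, which shows leader peptides of other class I chains to the receptor made of Klrc1 and Klrd1 on natural killer and T cells. It was at 511.3, 368.2 and 254.9 CPM in mIDH1 libraries, against 473.0, 559.8 and 496.0 CPM in wtIDH1 libraries. The mIDH1 libraries spread widely and replicate 1 lay inside the wtIDH1 range, while replicates 2 and 3 lay below it. The log2 fold change was -0.43 (95% interval -0.91 to 0.05, adjusted p = 0.286, edgeR), and without mIDH1 replicate 1 it was -0.71 (adjusted p = 0.0479). H2-M3 (chromosome 17, 37270220 to 37274484, plus strand), which presents N-formylated peptides of bacteria and mitochondria, was at 39.7, 35.5 and 45.7 CPM in mIDH1 libraries, against 43.3, 62.7 and 35.7 CPM in wtIDH1 libraries. The groups overlapped, and the log2 fold change of -0.23 (95% interval -0.77 to 0.31, adjusted p = 0.655) became 0.02 without wtIDH1 replicate 2.

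**Figure D2:**
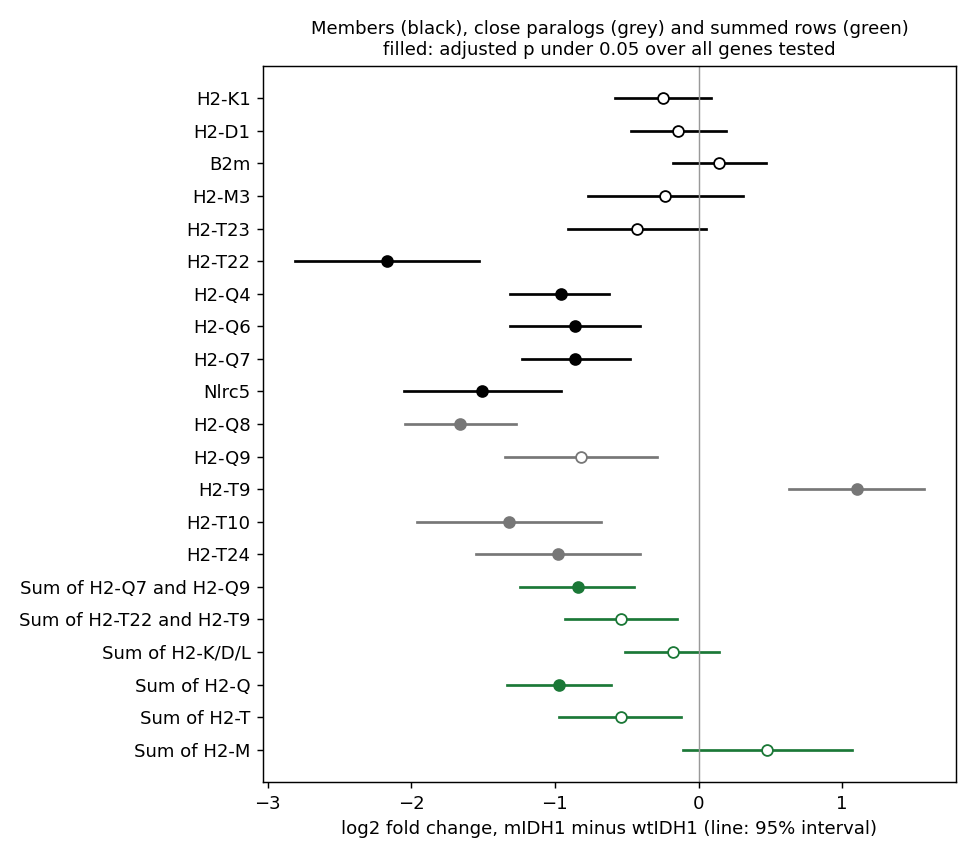
Log2 fold change (mIDH1 minus wtIDH1) of each of the 10 genes with its 95% interval from edgeR, and that of the summed paralog groups. The intervals of Nlrc5, H2-T22, H2-Q4, H2-Q6 and H2-Q7 lie below 0, while those of H2-K1, H2-D1, B2m, H2-T23 and H2-M3 include 0.

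Per kilobase of annotated exon, a scale on which levels of different genes can be set side by side, B2m had the highest level in both groups, followed by H2-D1 and H2-K1. B2m was at a mean of 2291.0 CPM per kilobase in mIDH1 libraries and 2076.3 in wtIDH1 libraries. H2-D1 was at 1028.1 CPM per kilobase in mIDH1 libraries and 1131.4 in wtIDH1 libraries. These 3 genes kept their order without any overlap between neighbours. In mIDH1 libraries the next 3 were H2-T23 (88.2 to 177.0 CPM per kilobase), H2-Q4 (112.4 to 126.9) and H2-Q6 (85.5 to 133.9), whose ranges overlapped. In wtIDH1 libraries the next 3 were H2-Q4 (211.2 to 249.5), H2-Q6 (151.9 to 222.8) and H2-T23 (163.7 to 193.8), and neighbours overlapped here too. Nlrc5 stood at 17.5 to 36.6 CPM per kilobase in mIDH1 libraries, overlapping H2-M3 (24.7 to 31.8), and at 58.8 to 85.8 in wtIDH1 libraries, overlapping H2-Q7 (62.4 to 80.1). H2-T22 was the lowest in mIDH1 libraries at 4.79 to 11.4 CPM per kilobase, while H2-T22 (31.2 to 47.5) and H2-M3 (24.8 to 43.6) overlapped at the bottom of the order in wtIDH1 libraries. The place of H2-T22 rests on how its reads were divided with H2-T9, which has no annotated length here and so no level on this scale. The same holds for the place of H2-Q7, whose reads were divided with H2-Q9.

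Class I heavy chain genes are so alike that a read can match several of them. Among stretches of 50 bases in the annotated transcripts (GENCODE M21), the share found in another gene as well was 34.5% for H2-T22, 32.0% for H2-Q6, 26.4% for H2-Q7 and 21.8% for H2-Q4. It was 13.6% for H2-T23, 12.8% for H2-D1, 9.6% for H2-K1, 0.6% for H2-M3 and 0 for B2m. H2-T9, H2-Q8 and H2-Q9 have rows in the count table but were not among the genes of that annotation, so stretches shared with them are not in these shares. No read length is given in the sources.

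The counts themselves show where reads were split between genes. Of the 10 genes, H2-T22 and H2-Q7 alone had values that were not whole, and they were not whole in all 6 libraries. In each library the H2-T22 value became whole, within 0.02, when the value of H2-T9 was added to it, and the same held for H2-Q7 with H2-Q9. H2-T9 was at 94.8, 98.8 and 82.0 CPM in mIDH1 libraries, against 55.0, 40.5 and 33.1 CPM in wtIDH1 libraries. It was higher in every mIDH1 library, opposite to H2-T22, with a log2 fold change of 1.10 ± 0.22 (SE; adjusted p = 0.00969, edgeR; 0.0688 without wtIDH1 replicate 2 and 0.0592 without wtIDH1 replicate 3). H2-T9 took 73.7%, 85.8% and 67.7% of the counts of the pair in mIDH1 libraries, against 29.4%, 20% and 23.7% in wtIDH1 libraries.

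Summed, H2-T22 and H2-T9 came to 128.5, 115.2 and 121.0 CPM in mIDH1 libraries, against 187.1, 202.6 and 139.8 CPM in wtIDH1 libraries. The groups still did not overlap, but the log2 fold change of the sum was -0.54 ± 0.18 (SE; 95% interval -0.93 to -0.15) and the adjusted p was 0.0889, and between 0.0601 and 0.309 under the alternatives. The sum was added after the values were seen. The call for H2-T22 therefore holds for the row as deposited and not for the pair of rows between which its reads were divided. H2-Q9 took 33.3%, 39.3% and 28.7% of the counts it shared with H2-Q7 in mIDH1 libraries, against 36.7%, 34.0% and 26.5% in wtIDH1 libraries, and these ranges overlapped. The sum of H2-Q7 and H2-Q9 had a log2 fold change of -0.84 ± 0.18 (SE; adjusted p = 0.0148), close to that of H2-Q7 alone. It missed the threshold with the replicate block (adjusted p = 0.053) and without mIDH1 replicate 2 (0.0553), wtIDH1 replicate 1 (0.0623) or wtIDH1 replicate 2 (0.0882).

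**Figure D3:**
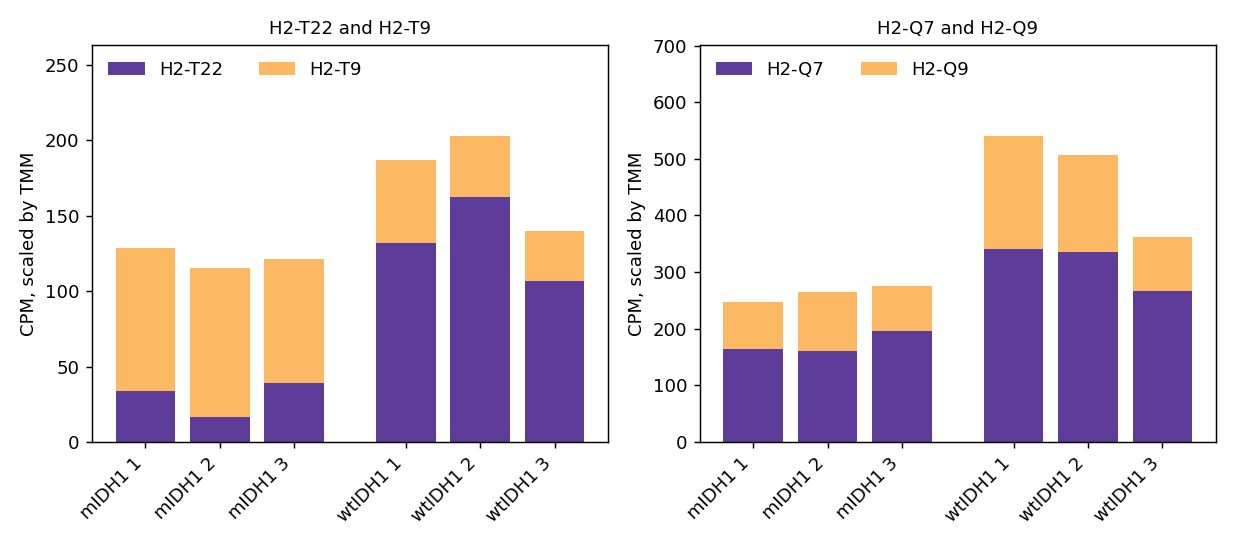
CPM scaled by TMM of H2-T22, H2-T9 and their sum, and of H2-Q7, H2-Q9 and their sum, in each library, with mIDH1 left of wtIDH1. H2-T22 is lower and H2-T9 higher in every mIDH1 library, and the sum of the pair differs less (log2 fold change -0.54) than H2-T22 alone (-2.17), while H2-Q7 and the sum with H2-Q9 differ by nearly the same amount (-0.86 and -0.84).

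A sum over a whole region does not depend on how its reads were divided within it. The 8 Q region rows together fell to 843.5, 901.8 and 911.1 CPM in mIDH1 libraries, against 1910.8, 1828.6 and 1451.6 CPM in wtIDH1 libraries. The log2 fold change was -0.97 ± 0.17 (SE; adjusted p = 0.00445, edgeR), or 51.2% of the wtIDH1 level, and it passed under all 15 alternatives with adjusted p of at most 0.0373. The 7 T region rows summed to 713.6, 563.1 and 423.4 CPM in mIDH1 libraries, against 779.5, 895.8 and 798.9 CPM in wtIDH1 libraries. Their groups did not overlap, but the log2 fold change of -0.54 ± 0.20 did not pass (adjusted p = 0.115), and it was -0.75 without mIDH1 replicate 1 (adjusted p = 0.0327). The H2-K1, H2-K2 and H2-D1 rows together had a log2 fold change of -0.18 (95% interval -0.51 to 0.14, adjusted p = 0.537), and the 6 M region rows 0.48 (95% interval -0.11 to 1.07, adjusted p = 0.337). Of the 4 summed groups, the Q region was thus the 1 that passed.

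The makeup of the heavy chain counts differed accordingly. Over the 24 heavy chain rows of these 4 groups, the Q region held 14.3%, 15.3% and 15.9% of the counts in mIDH1 libraries, against 24.6%, 22.8% and 21.5% in wtIDH1 libraries. The H2-K and H2-D rows held 72.0%, 74.2% and 75.7% in mIDH1 libraries, against 64.7%, 65.3% and 66.1% in wtIDH1 libraries. Neither share overlapped between the groups. The T region share, 12.1%, 9.57% and 7.38% in mIDH1 libraries against 10%, 11.1% and 11.8% in wtIDH1 libraries, did overlap. All 24 rows made up 0.587 to 0.611% of a mIDH1 library and 0.653 to 0.779% of a wtIDH1 library.

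**Figure D4:**
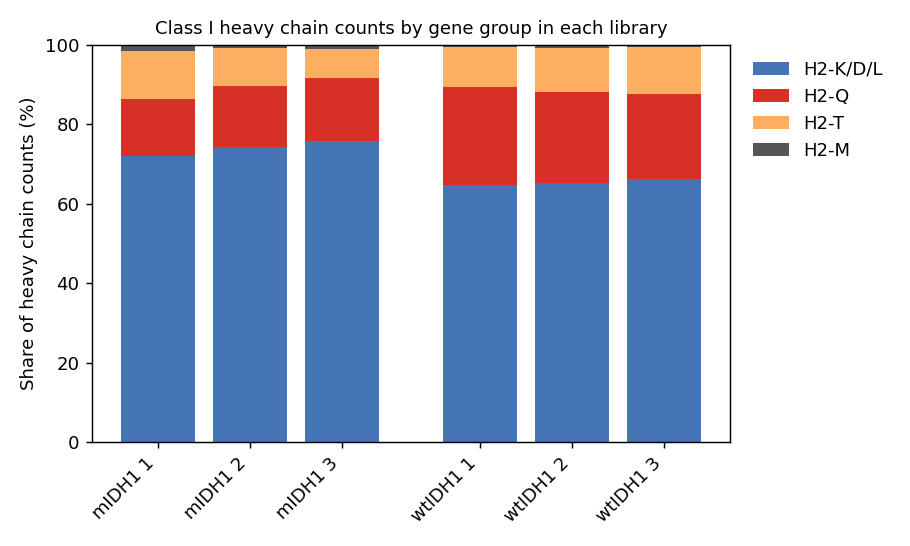
Share of class I heavy chain counts held by the K and D, Q, T and M region rows in each library, as stacked bars in percent with mIDH1 libraries left of wtIDH1 libraries. The Q region takes 14.3 to 15.9% in mIDH1 libraries and 21.5 to 24.6% in wtIDH1 libraries.

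Of 14 tested genes in a list of other class I and class I-like genes, 3 fell, 3 rose and 8 did not pass, with a median log2 fold change of 0.17, and 5 fell by DESeq2. Over all genes tested, 5.39% fell and 2.78% rose, with a median of 0.06. The 3 that fell were H2-Q8, H2-T10 and H2-T24. H2-Q8, another Qa-2 gene, was at 83.1, 76.2 and 60.5 CPM in mIDH1 libraries, against 254.1, 221.1 and 217.9 CPM in wtIDH1 libraries. Its groups were far apart, and its log2 fold change of -1.66 ± 0.18 (SE; adjusted p = 2.5e-04, edgeR) passed under all 15 alternatives. H2-T10 is annotated as a polymorphic pseudogene, and whether it makes a product in these cells was not tested. Its product, like that of H2-T22, can be bound by some gamma-delta T cells. H2-T10 shares 31.2% of the 50-base stretches of H2-T22. It was at 9.39, 13.3 and 13.2 CPM in mIDH1 libraries, against 31.2, 25.9 and 32.4 CPM in wtIDH1 libraries. Its log2 fold change was -1.32 (adjusted p = 0.0173, and 0.0581 to 0.0876 without any of the wtIDH1 libraries in turn). H2-T24 had a log2 fold change of -0.98 (adjusted p = 0.0379; 0.0573 without mIDH1 replicate 2, 0.0514 without wtIDH1 replicate 1, 0.125 without wtIDH1 replicate 2, 0.169 without wtIDH1 replicate 3 and 0.0782 with the replicate block).

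The 3 that rose were H2-T9, H2-M2 and Hfe. H2-M2 was at 61.5, 17.0 and 14.8 CPM in mIDH1 libraries, against 7.58, 1.63 and 2.57 CPM in wtIDH1 libraries. The mIDH1 mean rested largely on replicate 1, and the log2 fold change of 2.99 (adjusted p = 0.0157, edgeR) was 2.02 without it (adjusted p = 0.0782), 2.60 without wtIDH1 replicate 2 (0.0885) and 2.77 without wtIDH1 replicate 3 (0.0822). By limma voom it was 3.14 (adjusted p = 0.0681). Hfe, a class I-like molecule that regulates iron uptake, had a log2 fold change of 0.81 (adjusted p = 0.0375), and missed the threshold without mIDH1 replicate 3 (0.118) or any wtIDH1 library (0.121 to 0.130), by limma voom (0.0545) and with the replicate block (0.0786).

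In a list of 17 tested regulators of class I genes (transcription factors and the histone methyltransferase Ezh2), 3 fell, none rose and 14 did not pass. Of all genes tested, 5.39% fell and 2.78% rose. The median log2 fold change was -0.51, against 0.06 over all genes tested. The change was negative in 15 of the 17, against 46.6% of all genes tested. The groups did not overlap in 11 of the 17, against 28.9% of all genes tested. The number of the 17 that fell was 6 by DESeq2, 5 with no filter on low counts, 5 without mIDH1 replicate 1 and 1 without wtIDH1 replicate 2. Stat2, which carries type I interferon signals to the nucleus, was at 125.2, 73.8 and 56.6 CPM in mIDH1 libraries, against 288.6, 391.3 and 440.2 CPM in wtIDH1 libraries. Its groups did not overlap, mIDH1 replicate 1 was nearest to the wtIDH1 group as for Nlrc5, and the log2 fold change of -2.13 ± 0.27 (SE; adjusted p = 7.6e-04, edgeR) passed under all 15 alternatives. Nfkb1, a subunit of NF-kappaB, had a log2 fold change of -0.91 (adjusted p = 0.0109; 0.0683 without wtIDH1 replicate 2 and 0.0653 without wtIDH1 replicate 3). Irf8, an interferon regulatory factor of the myeloid lineage, had a log2 fold change of -0.76 (adjusted p = 0.0294; 0.112 without mIDH1 replicate 2, 0.100 without wtIDH1 replicate 1, 0.155 without wtIDH1 replicate 2 and 0.0836 with the replicate block). None of the RFX, NF-Y and CREB family genes of the list passed. The log2 fold changes were -0.91 for Rfx5 (adjusted p = 0.0549), -0.98 for Rfxank (0.147), -0.18 for Rfxap (0.842), -0.77 for Nfya (0.0777), 0.04 for Nfyb (0.952), 0.29 for Nfyc (0.528), -0.37 for Creb1 (0.365) and -0.12 for Atf1 (0.729).

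The machinery that supplies peptides to class I molecules showed 1 call among 14 tested genes, while 2.78% of all genes tested rose and 5.39% fell. Canx, the chaperone calnexin that holds newly made heavy chains, was at 675.6, 624.3 and 575.4 CPM in mIDH1 libraries, against 443.5, 385.5 and 435.0 CPM in wtIDH1 libraries. The groups did not overlap and the log2 fold change was 0.57 ± 0.16 (SE; adjusted p = 0.0444, edgeR), but it missed the threshold when any library except mIDH1 replicate 3 was left out (adjusted p 0.0965 to 0.201) and with the replicate block (0.116). The other 13 genes, among them the peptide transporter subunits Tap1 (log2 fold change -0.14, adjusted p = 0.800) and Tap2 (-0.46, 0.205) and the immunoproteasome subunit Psmb9 (-0.48, 0.337), did not pass. The median over the list was -0.18.

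A list of 12 tested genes held myeloid and natural killer cell receptors for class I molecules, and receptors related to them. Klrc1 and Pira2 rose and 10 did not pass, while DESeq2 called 1 of the list lower. Of all genes tested, 2.78% rose and 5.39% fell. Klrc1, a chain of the receptor for the H2-T23 product, was at 71.5, 70.4 and 33.0 CPM in mIDH1 libraries, against 32.9, 16.4 and 11 CPM in wtIDH1 libraries. The lowest mIDH1 library was next to the highest wtIDH1 library, and the log2 fold change of 1.54 ± 0.40 (SE; adjusted p = 0.0323, edgeR) missed the threshold without mIDH1 replicate 1 (0.0814), mIDH1 replicate 2 (0.114), wtIDH1 replicate 2 (0.156) or wtIDH1 replicate 3 (0.127). Its partner Klrd1 had a log2 fold change of -0.25 (adjusted p = 0.834). The T and NK cell markers summed to 170.7 to 402.2 CPM in mIDH1 libraries and 113.3 to 270.6 CPM in wtIDH1 libraries, with none of 6 passing the test, and their part in the Klrc1 result was not tested. Pira2, an activating paired immunoglobulin-like receptor, had overlapping groups and a log2 fold change of 1.11 (adjusted p = 0.0497), which missed the threshold when any library except mIDH1 replicate 3 was left out (0.0838 to 0.194), with RLE size factors (0.0505), by limma voom (0.0655) and with the replicate block (0.135).

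No gene of the 11 tested in the class II list passed edgeR's test, while 5.39% of all genes tested fell and 2.78% rose. The median log2 fold change was 0.10 over the list and 0.06 over all genes tested. An unadjusted p under 0.05 was found for 1 of the 11, and for 2878 of all 12950 genes tested. That list holds the class II chains, their accessory chains and Ciita, the relative of Nlrc5 that activates class II genes. DESeq2 called 0 of them, and without mIDH1 replicate 1 edgeR called 1 of them lower. The smallest p were those of H2-Aa (log2 fold change 0.51, adjusted p = 0.120, and 0.0320 without mIDH1 replicate 3) and H2-Oa (1.17, 0.229). Ciita was at 199.7, 126.5 and 68.0 CPM in mIDH1 libraries, against 189.2, 230.2 and 152.1 CPM in wtIDH1 libraries. Its groups overlapped, and the log2 fold change was -0.54 (95% interval -1.20 to 0.13, adjusted p = 0.339).

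The genes whose profile over the 6 libraries lay nearest to that of Nlrc5, by Euclidean distance of log2 CPM after subtracting each gene's mean, among 8971 genes, were Pml (distance 0.16), Mefv (0.21), Alpk1 (0.30), Herc6 (0.35) and Tra2a (0.35). Their log2 fold changes were -1.41, -1.53, -1.51, -1.45 and -1.59. Pml builds nuclear bodies, Mefv encodes pyrin, Alpk1 is a kinase of innate sensing, Herc6 attaches the ubiquitin-like modifier made by Isg15, and Tra2a is a splicing factor. The profile of H2-T22 had more distant neighbours, which were Plekhn1 (0.74), Gadd45g (0.80), Tchp (0.86), Tnfrsf12a (0.87) and Adamts10 (0.93). This distance takes in both the difference between the groups and the variation of libraries within a group, and their parts were not separated. Over 6 libraries such likeness does not show a shared control.

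Markers of several cell types were read beside these results. The neutrophil and monocyte lists need not mark cells apart from those sorted as CD11b+ Gr-1+. Ly6c2 is in the monocyte list and among the markers of the sorted cells. No marker passed among the 5 tested for microglia or the 2 tested for endothelial cells. Macrophage markers summed to 5409 to 12156 CPM in mIDH1 libraries and 3617 to 4229 CPM in wtIDH1 libraries, with 3 of 6 (Mrc1, C1qb and Cd68) rising. Apoe, C1qa and Adgre1 did not pass. Apoe had the highest mean of the macrophage markers (3899.7 CPM in mIDH1 and 2011.4 CPM in wtIDH1 libraries). It reached 6836.2 CPM in mIDH1 replicate 3, and its groups overlapped. Neutrophil markers summed to 216.6 to 319.1 CPM in mIDH1 libraries and 295.9 to 353.5 CPM in wtIDH1 libraries, while Cxcr2 rose and Csf3r fell. Monocyte markers summed to 877.2 to 2893.9 CPM in mIDH1 libraries and 1016.2 to 1801.1 CPM in wtIDH1 libraries, with Ly6c2 and Plac8 falling. Chil3 had the highest mean of the monocyte markers (1491.8 CPM in mIDH1 and 652.1 CPM in wtIDH1 libraries, not past the threshold). Ccr2 had a lower mean in mIDH1 libraries (203.4 against 401.0 CPM), also without passing. Dendritic cell markers summed to 17.2 to 62.5 CPM in mIDH1 libraries and 40.3 to 64.7 CPM in wtIDH1 libraries, and B cell markers stayed at or below 3.84 CPM in all 6 libraries. Glioma and neural markers summed to 10.4 to 17.4 CPM in mIDH1 libraries and 3.58 to 9.43 CPM in wtIDH1 libraries, without overlap. Sox2 of that list rose (adjusted p = 0.0368, edgeR), with 0.546, 7.30 and 4.19 CPM in mIDH1 libraries, against 0, 0.0759 and 0.151 CPM in wtIDH1 libraries. Nes had the highest mean of the list (8.97 CPM in mIDH1 and 2.91 CPM in wtIDH1 libraries) and did not pass. Gfap had a lower mean in mIDH1 libraries (0.668 against 2.86 CPM), also without passing. Olig1 and Olig2 were too low to be tested. No marker was at 0 in all libraries. The part of these cells in the class I and Nlrc5 differences was not tested.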

How the data were processed

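RNA was measured in 6 libraries, 3 mIDH1 and 3 wtIDH1, grouped by their titles. Estimated counts for each gene, unscaled, were deposited by the authors in 1 table, with 1.31 to 1.61% of the values of a library not whole to within 1e-09. The build mm10 and the tools HTSeq, Cufflinks, Cuffdiff 2.1.1, TopHat2 2.0.13, Bowtie2 2.2.1 and FastQC are named, per the submitters' processing notes. The sources used here do not give their order and settings, the annotation, the read length or the handling of reads that match several genes. Libraries were made from polyadenylated RNA with a kit that does not keep the strand, per the labels' protocols. Reads of overlapping antisense genes can then not be told apart. This concerns Nlrc5, H2-T22 and H2-Q4. Exons of H2-T22 overlap those of A930015D03Rik, which was at 2.35 to 5.42 CPM in mIDH1 libraries and 2.91 to 3.33 CPM in wtIDH1 libraries. Exons of H2-Q4 overlap those of Gm11131, which has no row in the count table.

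Values were rounded to whole counts. Genes were kept by filterByExpr (minimum count 10, minimum total 15), which left 12950, with all 10 class I genes and Nlrc5 among them. After TMM scaling, mIDH1 was compared with wtIDH1 by edgeR 4.0.16 in R 4.3.3 (glmQLFit, then glmQLFTest, with no covariate and 4 residual degrees of freedom). P-values are two-sided and Benjamini-Hochberg adjusted over the 12950 genes, and 0.05 is the threshold. The 95% intervals come from the same fit. Alternatives covered scaling, filters, DESeq2 1.42.0, limma 3.58.1 voom, robust fitting, a replicate block, summed paralogs and leaving out each library. The code was checked on simulated counts.

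The members and gene lists were chosen with earlier results of these data known. Named are all members, each list gene that passed (or the 2 with the smallest p where none did), and the 5 nearest profiles (mean of at least 5 CPM) of Nlrc5 and of the other member with the smallest p. Other genes named beside them (the RFX, NF-Y and CREB family genes, Tap1, Tap2, Psmb9, Klrd1, Ciita and low-count class I rows) were picked after their values were seen. Of 137 list genes, 3 were not found and 4 stood under an older symbol. Replicates of a group differed by a chi-square of 50.3 to 144 per degree of freedom, so each counted as 1 sample. P-values reflect only how these libraries vary, and part of that variation may be technical. The limit for a count of 0 is 3 counts and covers counting error only. Coordinates are those of GENCODE M21 (GRCm38), counted from 1.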

Additional observations from a re-analysis of the deposited data

How the results depend on the processing

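All 15 alternatives that keep the rows as deposited left Nlrc5, H2-T22, H2-Q4 and the Q region sum past the threshold, and H2-K1, H2-D1 and B2m short of it with the same sign. Over all genes, 1058 were called, against 1698 by DESeq2, 585 with the replicate block and 334 to 1033 without 1 library. The share of lower genes among the calls was 66.0%, against 55.0% with library totals alone (486 higher, 593 lower), 57.9% by DESeq2, 56.9% with upper-quartile factors, 73.0% by limma voom, 73.3% with the replicate block and 76.6% without wtIDH1 replicate 2. The median log2 fold change of all genes was 0.055, against 0.129 with library totals alone and 0.115 with upper-quartile factors. Of the class I genes and Nlrc5, 5 were called, against 3 to 5 without 1 library and 4 with the replicate block. With close paralogs summed, 2 of the 6 resulting rows were called (the Q region and Nlrc5). Of the paralog sums, 1 was called, against 1 to 2 without 1 library (the T region without mIDH1 replicate 1). In the 5 gene lists, 12 were called, against 7 with the replicate block and 2 to 13 without 1 library (6, 2 and 4 without wtIDH1 replicates 1, 2 and 3). The log2 fold change of H2-M3 ranged between -0.40 (without wtIDH1 replicate 3) and 0.02 (reversed, without wtIDH1 replicate 2). The groups share replicate numbers, but same-numbered libraries did not deviate together (r = -0.032, 0.031 and -0.051), and 1 of 3 mIDH1 libraries correlated best with its own number, so the block adjusts for a number only. A gene called as deposited but missed without 1 library was tested with fewer samples. Depth limits the rarest class I rows, with levels near the limit that a count of 0 allows.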

Other observations

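Some class I rows were low in every library. Of these, H2-K2 is annotated as a transcribed pseudogene and H2-Bl as a polymorphic pseudogene. H2-K2 was at 2.33, 4.87 and 7.70 CPM in mIDH1 libraries, against 8.97, 26.2 and 11.8 CPM in wtIDH1 libraries, and did not pass (log2 fold change -1.66, adjusted p = 0.0895, edgeR). H2-Q10, which in mouse liver encodes a secreted class I molecule, was at 11.9, 9.44 and 3.52 CPM in mIDH1 libraries, against 2.96, 1.97 and 3.08 CPM in wtIDH1 libraries (log2 fold change 1.64, adjusted p = 0.145). It lay higher in every mIDH1 library, opposite to the other Q region rows that were tested. H2-Bl was at 0 to 0.144 CPM in mIDH1 libraries and 0.370 to 1.71 CPM in wtIDH1 libraries, and was too low to be tested. H2-M10.1, H2-M11, H2-M5 and H2-M9 had 0 counts in all 6 libraries, which allows up to 0.1521 CPM in the shallowest. H2-T3 had 1.43 CPM in mIDH1 replicate 3, and at most 0.031 CPM in the other 5 libraries.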
